A study of Mus musculus with 4 samples.

Results

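The mitochondrial ribosomal protein genes were taken as every row of the expression table whose gene symbol reads Mrpl or Mrps followed by a number and at most a single letter. This gave 78 genes of the 22266 in the table, and all 78 passed the filter on low values. The mitochondrial ribosome is a separate ribosome inside the organelle that translates the mRNAs of the mitochondrial genome into core subunits of the respiratory chain and ATP synthase. Its rRNAs are transcribed from mitochondrial DNA, whereas its proteins are encoded in the nucleus, made in the cytosol and imported. Some of these proteins descend from the bacterial ribosome and others were added during the evolution of mitochondria. By this background, 51 of the genes encode proteins of the large subunit and 26 of the small subunit, and 46 of these 77 proteins have a bacterial counterpart while 31 are specific to mitochondria. The remaining gene, Mrps36, keeps its ribosomal symbol, but its product is a subunit of the oxoglutarate dehydrogenase complex of the citric acid cycle. The symbols also misplace a pair of others, since the products of Mrps18a and Mrps30 belong to the large subunit.

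The 4 libraries are poly(A)-selected RNA from mouse embryonic stem cells of the female line PGK12.1, grown in serum and leukemia inhibitory factor. All 4 come from cells with floxed, HaloTag-bearing alleles of Cbx2 (CBX2fl/fl-HaloTag); CBX2 is a chromodomain subunit of Polycomb repressive complex 1, which helps keep developmental genes silent. The KO group (n = 2, day 2) was given 1.0 µM 4-hydroxytamoxifen (OHT) for 48 hours to delete Cbx2, and the EtOH group (n = 2, day 0) was given ethanol and is labelled Wildtype. No library used here combines OHT with intact Cbx2 or ethanol with day 2, so the deletion, the drug and the time in culture cannot be told apart. The labels do not name the recombinase or the deleted exons, and do not state whether replicates are separate cultures; the p-values therefore cover only the variation among these libraries, which may be technical. The comparison asks which transcripts differ between cells given OHT, at day 2, and cells given ethanol, at day 0.

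Values are the authors' TPM, in which estimated reads are divided by transcript length and each library is scaled to 1000000, so levels of different genes can be compared but the depth of each library is unknown. Cbx2 itself read 0.749 and 1.14 TPM in the KO libraries, against 2.29 and 2.71 TPM in the EtOH libraries; its log2 fold change was -0.85 (SE 0.19, limma adjusted p = 0.265), which did not pass. The libraries carried the markers of the labelled cell type and little of others. The 9 embryonic stem cell markers, among them Pou5f1 and Nanog, were detected in every library, with summed levels of 12591 and 11306 TPM in KO and 9714 and 9634 TPM in EtOH. Dppa5a alone read 7089 and 5623 TPM in KO and 4733 and 4612 TPM in EtOH, whereas Utf1 was lower in both KO libraries (334.9 and 317.8 TPM in KO, 396.5 and 373.1 TPM in EtOH) and Sox2 overlapped (439.4 and 465.9 TPM in KO, 461.7 and 460.9 TPM in EtOH). The 9 fibroblast or feeder markers summed to 8.97 and 13.1 TPM in KO and 7.57 and 6.42 TPM in EtOH, most of it from Thy1, with Postn at 0 in every library. The 7 primitive endoderm markers summed to 14.2 and 21.1 TPM in KO and 17.3 and 19.0 TPM in EtOH, and the 6 trophoblast markers to 53.8 and 57.9 TPM in KO and 50.5 and 50.4 TPM in EtOH. Markers of 2-cell-like cells, which arise at low frequency in such cultures, summed over 6 genes to 46.4 and 69.9 TPM in KO and 75.8 and 78.8 TPM in EtOH. Stem cell, fibroblast and trophoblast marker sums were thus higher in both KO libraries and 2-cell-like sums lower; their part in the values below was not tested. In bulk RNA, fewer cells of a type and less RNA per cell cannot be told apart.

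The transcripts were abundant, and most stood within a narrow band of levels. The median over the 78 genes of the mean level was 75.5 TPM, 75.7 TPM in the large and 78.7 TPM in the small subunit, and 58 genes lay between 50 and 150 TPM. Only 6 exceeded 150 TPM, 4 of them 200 TPM, and 14 lay under 50 TPM, so that levels spanned a 27.3-fold range although most of the proteins occur in a single copy per ribosome. The genes are scattered over 17 chromosomes, with 11 of them on chromosome 11.

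**Figure D1:**
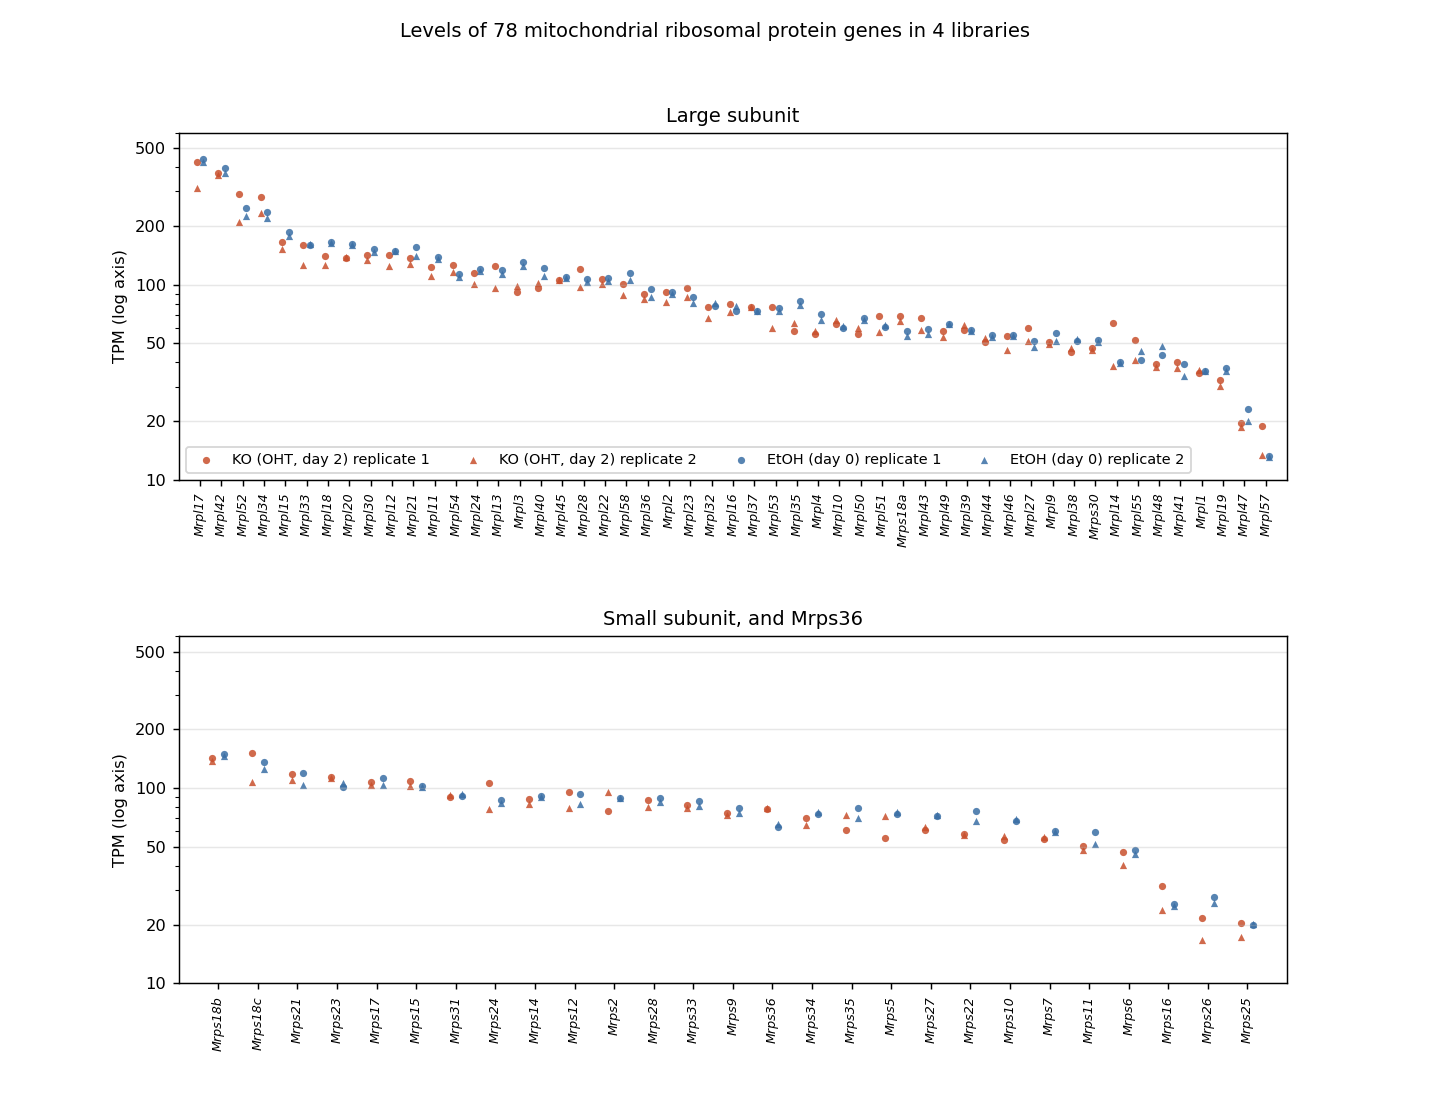
Level of each of the 78 genes in every library, ordered by mean level within the large subunit (top) and the small subunit with Mrps36 (bottom); the vertical axis is TPM on a log scale, KO libraries are red and drawn left of the blue EtOH libraries, and circles and triangles are replicates 1 and 2. A few large-subunit genes stand above 200 TPM, most lie between 50 and 150 TPM, and within a gene the 4 libraries usually lie close together.

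The 4 most abundant members all encode large-subunit proteins. Mrpl17, the counterpart of bacterial L17 near the exit of the peptide tunnel, read 425.6 and 312.3 TPM in KO and 437.9 and 424.5 TPM in EtOH. Mrpl42, a mitochondria-specific protein, read 370.5 and 363.4 TPM in KO and 396 and 374.5 TPM in EtOH. The spread of Mrpl17 came from KO replicate 2, which lay below the other 3 libraries, whereas both KO libraries of Mrpl42 lay below both EtOH libraries by a small margin. Mrpl52, also specific to mitochondria, read 289.6 and 207.9 TPM in KO and 246.2 and 223.3 TPM in EtOH. Mrpl34, the counterpart of bacterial L34, read 279.2 and 232.6 TPM in KO and 234.5 and 219.4 TPM in EtOH. In both, KO replicate 1 was the highest library and the groups overlapped. Neighbours in this order could not all be separated: Mrpl52 and Mrpl34 averaged 248.7 ± 57.8 and 255.9 ± 33.0 TPM in KO, and 234.8 ± 16.2 and 226.9 ± 10.6 TPM in EtOH (SD, n = 2 each).

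The 4 least abundant members were Mrpl57, Mrps25, Mrpl47 and Mrps26. Mrpl57, specific to mitochondria, read 19.0 and 13.4 TPM in KO and 13.3 and 13.0 TPM in EtOH, so that only KO replicate 1 stood clearly apart. Mrps25, also specific to mitochondria, read 20.3 and 17.4 TPM in KO and 19.9 and 20.2 TPM in EtOH, with KO replicate 2 the lowest. Mrpl47, the counterpart of bacterial L29, read 19.6 and 18.7 TPM in KO and 23.0 and 20.02 TPM in EtOH, so both KO libraries lay below. Values of Mrps25 and Mrpl47 are uncertain: 69.8% of the exon bases of Mrps25 are shared with Nr2c2, and 10.2% and 13.9% of those of Mrpl47 with Actl6a and Ndufb5. Such doubts touch 30 of the 78 genes, of which 16 have a near-identical copy elsewhere and 17 share at least 10% of their exon bases with another gene. Among the 30, Mrpl42 and Mrpl23 have pseudogene copies, and Mrpl14 shares 11.2% of its exon bases with Tmem63b. Whether the library kit kept strand is not given in the sources used here.

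No member passed the test between the groups. By limma on log2(TPM + 1) with Benjamini-Hochberg adjustment over the 12029 genes whose mean reached 1 TPM, 0 of the 78 genes had an adjusted p under 0.05, where 0.0416% of all genes tested did (1 higher, 0.00831%, and 4 lower, 0.0333%, in KO). With a library left out, a group holds only 1 library, so calls from such fits are not counted. Without KO replicate 1 the members' median log2 fold change was -0.13, beside 0.14 over all genes tested. Without KO replicate 2 it was -0.03, beside -0.09. Without EtOH replicate 1 it was -0.05, beside -0.0008, and without EtOH replicate 2 it was -0.10, beside 0.04. At an unadjusted p under 0.05, 1 member was higher (6.02% of all genes tested) and 6 were lower (4.46%). Differences were small: ratios of the group means ran from 28.2% lower to 28.2% higher, 46 genes lay within 10% of no change and 72 within 20%, against 70.3% of all genes tested within 20%. The log2 fold changes ranged from -0.47 to 0.31 with a median of -0.08, beside 0.02 over all genes tested, and 55 members were below 0 and 23 above (46% of all genes tested were below 0).

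Both KO libraries lay below both EtOH libraries in 36 of the 78 genes, or 46.2%, against 19.4% of all genes tested. Both lay above in 9 genes, or 11.5%, against 23.1% of all genes tested. Leaving out a library can only keep or raise both counts, so each is given beside the share of all genes tested. Without KO replicate 1, 57 members lay below and 12 above (73.1% and 15.4%, against 26.3% and 61.9% of all genes tested). Without KO replicate 2, 40 lay below and 26 above (51.3% and 33.3%, against 56.3% and 29.8%), so the share below was then under that of all genes and the share above over it. Without EtOH replicate 1, 37 lay below and 16 above (47.4% and 20.5%, against 26.9% and 27.8%), and without EtOH replicate 2, 48 and 10 (61.5% and 12.8%, against 23.8% and 32%). The 48 members with neither a copy nor an overlapping gene held 21 below and 6 above, with a median log2 fold change of -0.07. The balance depended on how the libraries were scaled. After scaling by the median of ratios, 18 members lay below and 1 above (23.1% and 1.28%, against 25.5% and 22.9% of all genes tested). Under this scaling the share below was near that of all genes. After quantile normalization 16 lay below and 6 above (20.5% and 7.69%, against 24.4% and 23.5%). With each library's trend on transcript length and GC content removed, 28 lay below and 15 above (35.9% and 19.2%, against 29.5% and 27.3% of 11973 genes). The share of higher calls among the members whose groups did not overlap was thus 20% on the TPM as deposited, 5.26% after the median of ratios, 27.3% after quantile normalization and 34.9% with the trend removed. The share of members below exceeded that of all genes on the TPM as deposited and with the trend removed, but not after the other 2 scalings, while the share above stayed under that of all genes in each of the 4.

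**Figure D2:**
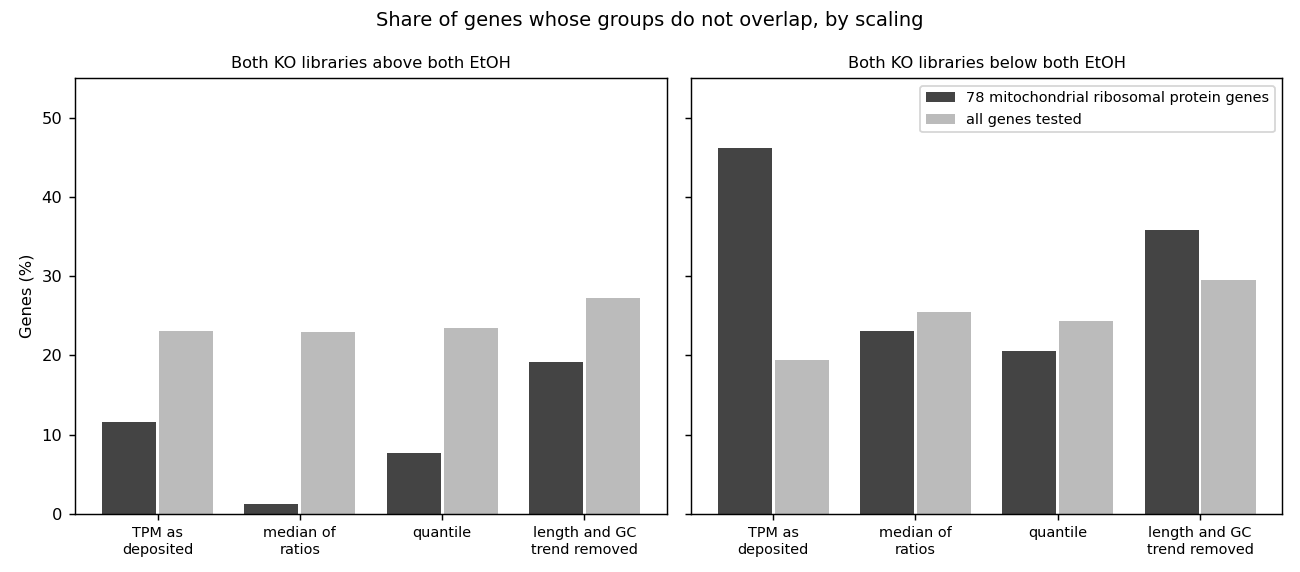
Percentage of genes whose groups do not overlap, with both KO libraries above (left) or below (right) both EtOH libraries, under 4 scalings; dark bars are the 78 mitochondrial ribosomal protein genes and light bars are all genes tested. The dark bar on the right stands at 46.2% on the TPM as deposited and at 23.1% and 20.5% under the median of ratios and quantile scalings, while on the left it is under the light bar in each scaling.

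The KO libraries differed from each other. The median difference of the members from the EtOH mean was -0.03 (log2) in KO replicate 1 and -0.13 in KO replicate 2, while over all genes tested it was -0.09 and 0.14. KO replicate 1 read above KO replicate 2 in 59 of the 78 genes (75.6%), against 23.8% of all genes tested. After the median of ratios the members' medians were 0.06 in KO replicate 1 and -0.29 in KO replicate 2, and after quantile normalization 0.08 and -0.19, so that the direction in KO replicate 1 depended on the scaling and that in KO replicate 2 was negative under each. With the length and GC trend removed they were 0.02 and -0.13. Transcript length moved with the difference between these libraries: across the genes tested, KO replicate 2 minus KO replicate 1 had a Pearson r of 0.56 (Spearman 0.62) with log2 length, a correlation across genes, which are not replicates. Most members are short, with a median longest coding transcript of 1327.5 bases, and over the 78 genes the same correlation was 0.26 (Spearman 0.30). The log2 fold change itself was lower in longer members (r = -0.43, Spearman -0.43, over 78 genes in the same 4 libraries): the 39 longer genes had a median of -0.12 with 23 below and 4 above, and the 39 shorter a median of -0.05 with 13 below and 5 above. Among all genes tested, of every length, 19.4% lay below and 23.1% above, and their fold changes were not split by length. With the trend removed, the medians of the longer and shorter members were -0.09 and -0.02.

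Summed over the 78 genes, mitochondrial ribosomal protein transcripts made up 7351 and 6683 TPM in KO and 7549 and 7272 TPM in EtOH, or 0.735% and 0.668% of all TPM against 0.755% and 0.727%. KO replicate 1 lay between the EtOH libraries and KO replicate 2 below both. The KO mean of 7017 ± 473 TPM differed by -5.31% from the EtOH mean of 7411 ± 197 TPM (SD, n = 2 each). An exact two-sided permutation test gave p = 0.667, and 2 libraries against 2 cannot give less than 0.333.

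The large subunit summed to 5243 and 4679 TPM in KO and 5373 and 5182 TPM in EtOH, and the small subunit to 2029.8 and 1925 TPM in KO and 2114 and 2024 TPM in EtOH. In the large subunit, 26 of 51 genes lay below (51.0%, against 19.4% of all genes tested) and 6 above (11.8%, against 23.1%), with a median log2 fold change of -0.10. In the small subunit, 10 of 26 lay below (38.5%) and 2 above (7.69%), with a median of -0.07. By origin, the 30 large-subunit genes with a bacterial counterpart had a median of -0.12 (16 below, 2 above) and the 21 mitochondria-specific ones -0.07 (10 below, 4 above). In the small subunit the order turned round, with a median of -0.05 in the 16 genes with a bacterial counterpart (5 below, 1 above) and -0.12 in the 10 mitochondria-specific ones (5 below, 1 above). These medians differ by less than the 0.09 between the members' medians of the KO replicates, and the differences between classes were not tested.

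**Figure D3:**
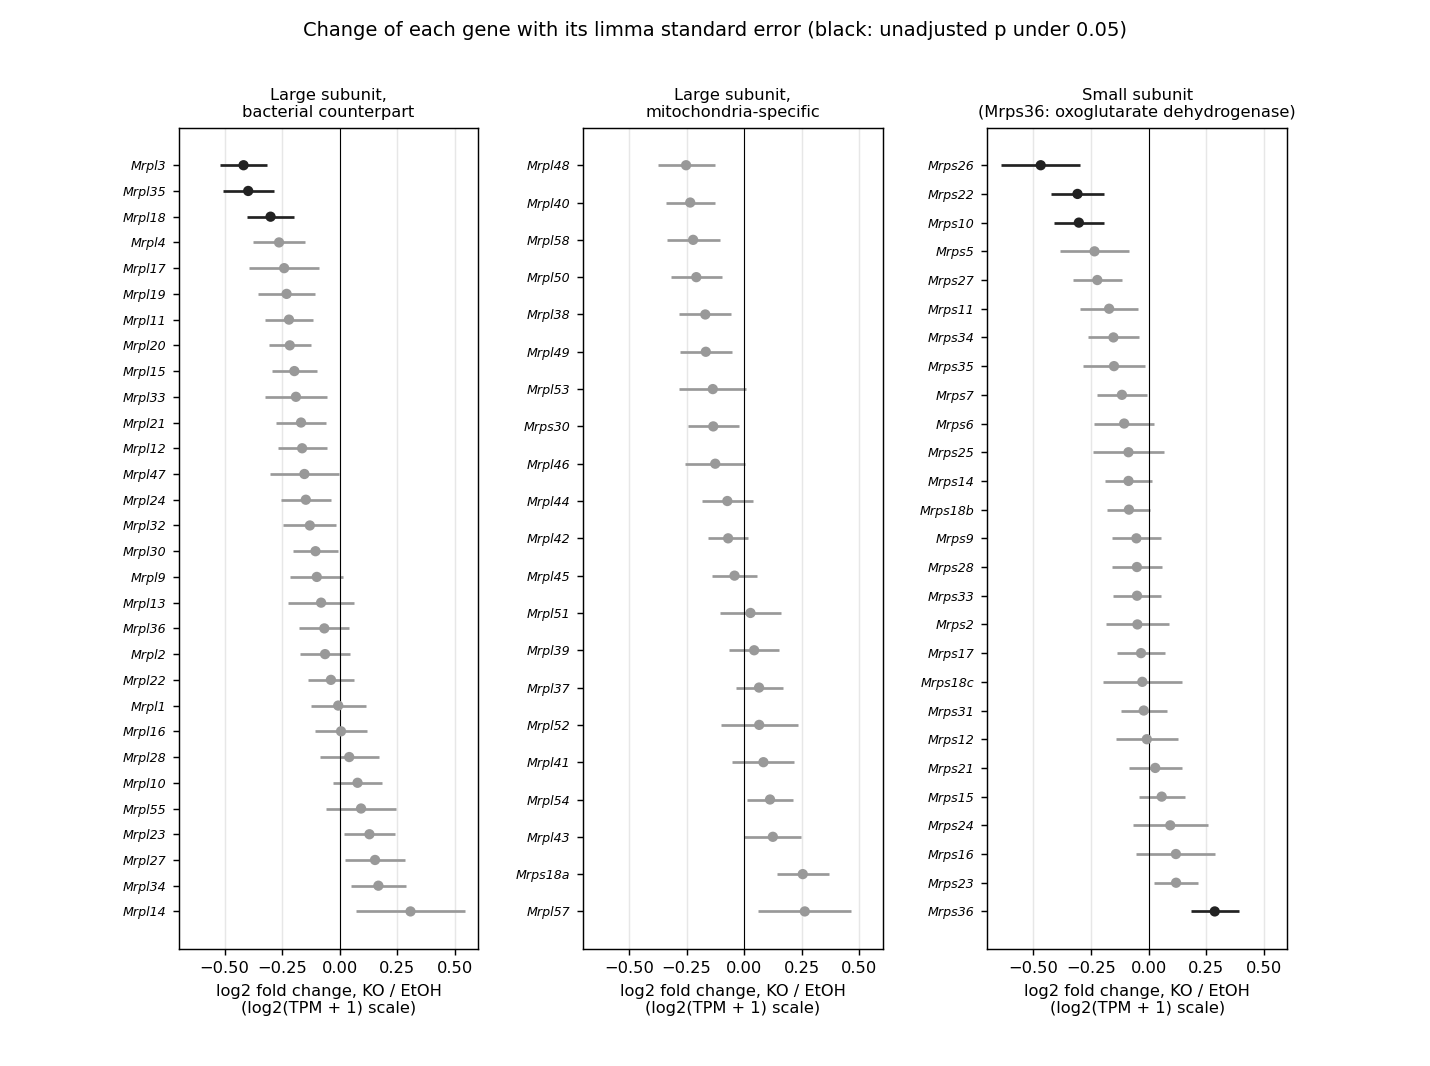
Log2 fold change of each gene, KO over EtOH on the log2(TPM + 1) scale, with limma's standard error as a bar, in the large subunit with a bacterial counterpart (left), the mitochondria-specific large subunit (middle) and the small subunit with Mrps36 (right); black marks an unadjusted p under 0.05. Values run from -0.47 (Mrps26) to 0.31 (Mrpl14), and 6 black points lie below 0 and 1, Mrps36, above.

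Among large-subunit members, the smallest p-values belonged to Mrpl3, Mrpl35 and Mrpl18. Mrpl3 (ENSMUSG00000032563.17, chromosome 9, 105053239 to 105079888, plus strand; GENCODE, GRCm38), whose bacterial counterpart L3 binds early during assembly and reaches towards the peptidyl transferase centre, read 91.2 and 98.4 TPM in KO and 129.9 and 124 TPM in EtOH. Both KO libraries lay below both EtOH libraries, by 25.3% in the means (log2 fold change -0.42, SE 0.10, unadjusted p = 0.00644, limma adjusted p = 0.284). Mrpl35 (ENSMUSG00000052962.4, chromosome 6, 71812997 to 71826969, minus strand), the counterpart of bacterial L35, read 58.2 and 63.6 TPM in KO and 82.3 and 78.6 TPM in EtOH (log2 fold change -0.40, SE 0.11, limma adjusted p = 0.328), again without overlap. Mrpl18 (ENSMUSG00000057388.10, chromosome 17, 12911349 to 12916345, minus strand) corresponds to bacterial L18, which binds 5S rRNA; mammalian mitochondrial ribosomes hold a tRNA at that place. It read 140.3 and 126.5 TPM in KO and 166.2 and 162.5 TPM in EtOH (log2 fold change -0.30, SE 0.10, limma adjusted p = 0.400). Its groups did not overlap either, but Mrpl18 has a pseudogene copy, Gm13675, and shares 10.1% of its exon bases with Tcp1 on the other strand, a chaperonin gene at 580.2 and 600 TPM in KO and 663.4 and 665 TPM in EtOH.

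Among small-subunit members, Mrps10, Mrps26 and Mrps22 had the smallest p-values. Mrps10 (ENSMUSG00000034729.17, chromosome 17, 47368887 to 47381417, plus strand), the counterpart of bacterial S10 in the head of the subunit, read 54.5 and 56.8 TPM in KO and 68.2 and 69.4 TPM in EtOH (log2 fold change -0.30, SE 0.11, limma adjusted p = 0.425), and a pseudogene copy exists. Mrps26 (ENSMUSG00000037740.9, chromosome 2, 130563742 to 130568695, plus strand), specific to mitochondria, had the most negative log2 fold change of the 78 genes, at 21.7 and 16.7 TPM in KO and 27.8 and 25.8 TPM in EtOH (log2 fold change -0.47, SE 0.17, limma adjusted p = 0.434). Its KO libraries differed from each other by more than its EtOH libraries did, yet both lay below. Mrps22 (ENSMUSG00000032459.10, chromosome 9, 98588730 to 98601660, minus strand), also specific to mitochondria and mutated in human mitochondrial disease, read 58.5 and 57.8 TPM in KO and 76.8 and 68.0 TPM in EtOH (log2 fold change -0.31, SE 0.12, limma adjusted p = 0.441). Its KO libraries were nearly equal and the spread lay in the EtOH libraries.

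The member with the smallest p among those higher in KO was Mrps36 (ENSMUSG00000061474.12, chromosome 13, 100735955 to 100744659, minus strand), the gene whose product is not part of the ribosome. It read 78.5 and 79.1 TPM in KO and 63.1 and 65.7 TPM in EtOH, 22.4% higher in the means (log2 fold change 0.29, SE 0.10, unadjusted p = 0.0327, limma adjusted p = 0.430). The KO libraries were nearly equal and both lay above both EtOH libraries under each of the 4 scalings; no other member lay above in all of them. The search found 5 pseudogene copies of Mrps36, so its level is uncertain. Without Mrps36, 8 of the remaining 77 genes lay above and 36 below on the TPM as deposited (10.4% and 46.8%, against 23.1% and 19.4% of all genes tested).

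Both KO libraries also lay above in 8 other members. Mrps18a read 69.4 and 64.7 TPM in KO and 57.8 and 54.3 TPM in EtOH (log2 fold change 0.25, SE 0.11, limma adjusted p = 0.507), without overlap, although its groups overlapped after the median of ratios. Mrps23, specific to mitochondria, read 113.5 and 112.1 TPM in KO and 101.8 and 105.7 TPM in EtOH (log2 fold change 0.12). Mrpl23, the counterpart of bacterial L23 at the tunnel exit, read 95.8 and 86.7 TPM in KO and 86.4 and 80.3 TPM in EtOH (log2 fold change 0.13). Both had groups that did not overlap, by margins smaller than the spread within a group for Mrpl23. Mrpl14, the counterpart of bacterial L14 at the interface of the subunits, had the largest positive log2 fold change, 0.31 (SE 0.24), from 63.8 and 38.5 TPM in KO and 40.2 and 39.6 TPM in EtOH. In Mrpl14 the groups overlapped: that difference came from KO replicate 1, and KO replicate 2 lay below both EtOH libraries. Likewise the 0.26 (SE 0.20) of Mrpl57 and the 0.17 (SE 0.12) of Mrpl34 came mostly from KO replicate 1. In Mrpl54, Mrpl10, Mrpl37 and Mrps15 both KO libraries lay above with log2 fold changes of 0.11, 0.08, 0.06 and 0.06; Mrpl37, for one, read 76.5 and 76.4 TPM in KO and 73.01 and 73.02 TPM in EtOH.

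**Figure D4:**
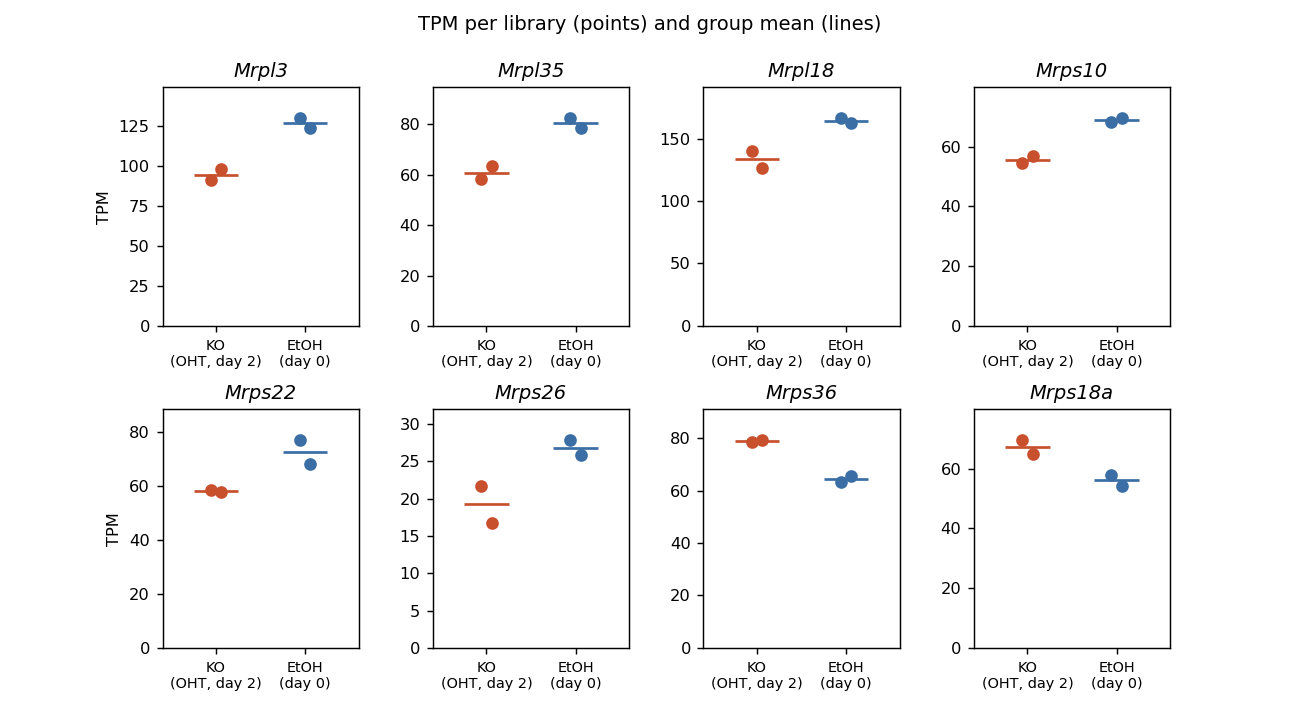
TPM of 8 members in each library (points) with the group mean (line), KO left of EtOH; every vertical axis is linear and starts at 0. In Mrpl3, Mrpl35, Mrpl18, Mrps10, Mrps22 and Mrps26 both KO libraries lie below both EtOH libraries, and in Mrps36 and Mrps18a both lie above.

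Mrps18a, Mrps18b and Mrps18c are paralogs of each other and homologs of bacterial S18. Their products occupy different places, the large subunit for Mrps18a and the small subunit for the others. In the classes used here, only Mrps18c counts as having a bacterial counterpart, and the other paralogs count as specific to mitochondria. Mrps18b read 142.1 and 137 TPM in KO and 150.1 and 146.1 TPM in EtOH, a log2 fold change of -0.08 (SE 0.09). Mrps18c, held to be the direct counterpart of S18, read 151.8 and 107.9 TPM in KO and 136.2 and 124.9 TPM in EtOH, a log2 fold change of -0.03 (SE 0.17). So both KO libraries of Mrps18a lay above, those of Mrps18b below, and those of Mrps18c on either side of the EtOH libraries. Both small-subunit paralogs have near-identical copies.

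Members below EtOH in both KO libraries under each of the 4 scalings numbered 14 (17.9%, against 13.3% of all genes tested). They were Mrpl3, Mrpl4, Mrpl18, Mrpl20, Mrpl35, Mrpl38, Mrpl40, Mrpl48, Mrpl50, Mrps5, Mrps10, Mrps22, Mrps26 and Mrps27, 9 of the large and 5 of the small subunit. Of the 78 genes, 1.28% lay above in every scaling, against 14.7% of all genes tested.

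Nuclear genes of the respiratory chain and of the mitochondrial ribosome are known targets of the factors NRF1, GABP (an ETS factor) and YY1, so the promoters were searched for their motifs. RefSeq promoters (GRCm38.p6), 250 bases before to 50 after the start, were found for 69 of the 78 genes. The ETS motif CCGGAAG stood on either strand in 26 of the 69 genes (37.7%), against 20.9% of 9583 genes tested and 9.93% of all 27025 genes with a promoter. The NRF1 motif, GCGCA and GCGC with any base between, stood in 13 (18.8%, against 11.9% and 5.19%), and the YY1 motif AAGATGGCG in 8 (11.6%, against 3.70% and 1.64%). At least 1 of these 3 stood in 41 genes (59.4%, against 32.4% and 15.1%). The SP1 box GGGCGG stood in 34 genes (49.3%), below its share among genes tested (70.0%) and above that among all genes (38.2%). Matches of different motifs shared bases in 2 genes (ETS with SP1 in Mrpl17 and Mrps16). A match describes the letters in this window, not a binding site, and a missing match says only that these letters are not in it.

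Shown here are the 120 bases before the RefSeq start of 5 genes. Mrpl3, Mrps22 and Mrps26 were lower in both KO libraries, Mrps18a was higher in both, and Mrpl17 was the most abundant. Capitals mark the ETS motif, or its reverse complement CTTCCGG, in the top 4 sequences and the NRF1 motif in Mrpl17, and each reads 5′ to 3′ on the gene's own strand.
Mrpl3 (chr9:105053148-105053267, plus strand): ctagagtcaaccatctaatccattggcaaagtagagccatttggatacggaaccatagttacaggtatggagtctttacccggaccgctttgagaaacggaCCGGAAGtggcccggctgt
Mrps22 (chr9:98601680-98601799, minus strand): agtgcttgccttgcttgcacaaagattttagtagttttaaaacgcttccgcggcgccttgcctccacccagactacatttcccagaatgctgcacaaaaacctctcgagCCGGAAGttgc
Mrps26 (chr2:130563637-130563756, plus strand): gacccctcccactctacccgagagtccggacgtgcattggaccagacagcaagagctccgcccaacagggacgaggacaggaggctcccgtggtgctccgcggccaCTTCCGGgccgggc
Mrps18a (chr17:46110884-46111003, plus strand): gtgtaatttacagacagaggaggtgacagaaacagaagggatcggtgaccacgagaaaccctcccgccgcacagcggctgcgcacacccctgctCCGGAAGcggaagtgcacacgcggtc
Mrpl17 (chr7:105811088-105811207, minus strand): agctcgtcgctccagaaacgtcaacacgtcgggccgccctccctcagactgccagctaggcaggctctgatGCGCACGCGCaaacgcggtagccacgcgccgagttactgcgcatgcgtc
The ETS motif ended 12 bases before the RefSeq start in Mrpl3, 4 in Mrps22, 7 in Mrps26 and 19 in Mrps18a. In Mrpl3 and Mrps26 the GENCODE coordinates given above begin earlier, so by those the motif lies inside the gene. No rule set which genes were shown. Mrpl35 and Mrps10, lower in both KO libraries, and Mrps36, higher in both, had no ETS match in the searched window. Members with and without the ETS motif had median log2 fold changes of -0.04 and -0.07, with 10 of 26 and 21 of 43 below in both KO libraries. Of all genes tested, 19.4% lay below, a share that was not split by motif. For NRF1 the medians were -0.07 with (13 genes) and -0.07 without (56), for YY1 -0.07 with (8) and -0.07 without (61), and for SP1 -0.06 with (34) and -0.09 without (35). These differences are under the 0.09 between the members' medians of the KO replicates.

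Many members start next to another gene. A protein-coding gene on the opposite strand began within 1000 bases upstream, or overlapped the start by at most 500 bases, in 26 of the 78 genes (33.3%), against 14.6% of 11994 coding genes tested. Mrpl46 and Mrps11 form such a pair with each other, with starts that overlap. Mrpl46 read 54.7 and 46.1 TPM in KO and 55.3 and 54.5 TPM in EtOH, and Mrps11 read 50.3 and 48.1 TPM in KO and 59.6 and 51.7 TPM in EtOH. Among the 24 pairs with both genes tested, log2 fold changes had the same sign in 12. In 0 pairs were both genes below, or both above, in both KO libraries. Taken singly, 19.4% of all genes tested lay below and 23.1% above. The pair counts were not made for other divergent genes, so they give no result particular to the members.

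A further 5 genes encode proteins of the mitochondrial ribosome under symbols outside the Mrp series; their median log2 fold change was -0.06, or -0.14 with the length and GC trend removed. Ptcd3, a small-subunit protein with RNA-binding repeats, read 114.9 and 141.2 TPM in KO and 153.3 and 162.4 TPM in EtOH (log2 fold change -0.31, limma adjusted p = 0.482). Aurkaip1 read 149 and 123 TPM in KO and 163 and 153.5 TPM in EtOH, and Dap3 read 146.3 and 141.2 TPM in KO and 148.9 and 150.1 TPM in EtOH. In these 3 of the 5 genes both KO libraries lay below, where 19.4% of all genes tested did, and Chchd1 (143.9 and 130 TPM in KO, 144.4 and 141.7 TPM in EtOH) and Gadd45gip1 overlapped.

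Of 28 genes tested for assembly of the mitochondrial ribosome and modification of its rRNA, 14 lay below (19.4% of all genes tested did) and 3 above (23.1%), with a median of -0.12, and 0 passed the test in either direction. Mettl17, which acts on the assembling small subunit, had the smallest p, at 5.42 and 7.49 TPM in KO and 11.3 and 10.8 TPM in EtOH (log2 fold change -0.70, SE 0.20, limma adjusted p = 0.334). Ybey, an endonuclease for the small subunit, Mtg2, a GTPase of the large subunit, and Fastkd2, an RNA-binding protein of the large subunit's rRNA, had log2 fold changes of -0.42, -0.36 and -0.32 and did not pass (limma adjusted p = 0.495, 0.497 and 0.497). Of 16 translation factors and mRNA-handling proteins, 5 lay below and 1 above, with a median of -0.07 and 0 past the test. Slirp, which partners LRPPRC in stabilising mitochondrial mRNAs, read 133.7 and 95.6 TPM in KO and 160.2 and 157.7 TPM in EtOH (log2 fold change -0.49, SE 0.17, limma adjusted p = 0.410). Tufm, the elongation factor that delivers tRNAs, read 119.8 and 124.3 TPM in KO and 143.3 and 140.4 TPM in EtOH (log2 fold change -0.22, limma adjusted p = 0.505).

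The mitochondrial aminoacyl-tRNA synthetases, which charge the tRNAs used by this ribosome, held 1 gene above (23.1% of all genes tested lay above) and 7 below (19.4% of all genes tested) of 17, with a median of -0.14 and 0 past the test. The gene above was Lars2, the leucyl enzyme, at 160 and 105 TPM in KO and 64.6 and 76.0 TPM in EtOH (log2 fold change 0.88, SE 0.21, unadjusted p = 0.0058, limma adjusted p = 0.277), the largest difference in either direction among the genes of these 4 lists. The next smallest p-values were those of Cars2, Rars2 and Yars2, with log2 fold changes of -0.25, -0.27 and -0.17. Copies and overlapping genes were sought for the members only, so none are known here for Lars2 or the other listed genes. Of 11 factors for transcription and replication of the mitochondrial genome, 6 lay below and 0 above (median -0.10, 0 past the test), among them the exonuclease gene Mgme1 at 21.5 and 26.0 TPM in KO and 31.9 and 31.7 TPM in EtOH. Of 12 mitochondrial chaperones and proteases, 3 lay below and 2 above, with a median of -0.00. Hspd1, the mitochondrial chaperonin, read 976.5 and 1090 TPM in KO and 1156 and 1199 TPM in EtOH, and its partner Hspe1 read 897.6 and 730.1 TPM in KO and 963.2 and 920.2 TPM in EtOH. Of 9 transcriptional regulators of nuclear genes for mitochondria, 1 lay below (Myc, log2 fold change -0.18) and 2 above, with a median of -0.03.

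The mRNAs that this ribosome translates differed by more between the groups than the transcripts of its own proteins. The 13 mitochondrially encoded mRNAs had a median log2 fold change of -0.55, against -0.08 in the ribosomal protein genes; 12 of the 13 lay below (92.3%, against 19.4% of all genes tested) and 0 passed the test. With the length and GC trend removed, their median was -0.27 and that of the ribosomal protein genes -0.06. Their sum was 29325 and 33786 TPM in KO and 42571 and 43487 TPM in EtOH, a difference of -26.7% in the means, beside -5.31% for the 78 genes. Nuclear-encoded subunits of oxidative phosphorylation, which assemble with the products of those mRNAs, had a median of 0.03 over 77 genes. Of these, 8 lay below (10.4%) and 13 above (16.9%). Cytosolic ribosomal proteins had a median of 0.08 over 79 genes, with 4 below (5.06%) and 17 above (21.5%). Over all genes tested, 19.4% lay below and 23.1% above. These lists divided by library too: the cytosolic ribosomal proteins stood at 0.21 in KO replicate 1 and -0.05 in KO replicate 2, and the nuclear subunits of oxidative phosphorylation at 0.16 and -0.08, so the order KO replicate 1 above KO replicate 2 was shared by both lists. The mitochondrially encoded mRNAs ran the other way, at -0.75 and -0.36. All lists are compared on the same 4 libraries, and differences between lists were not tested.

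**Figure D5:**
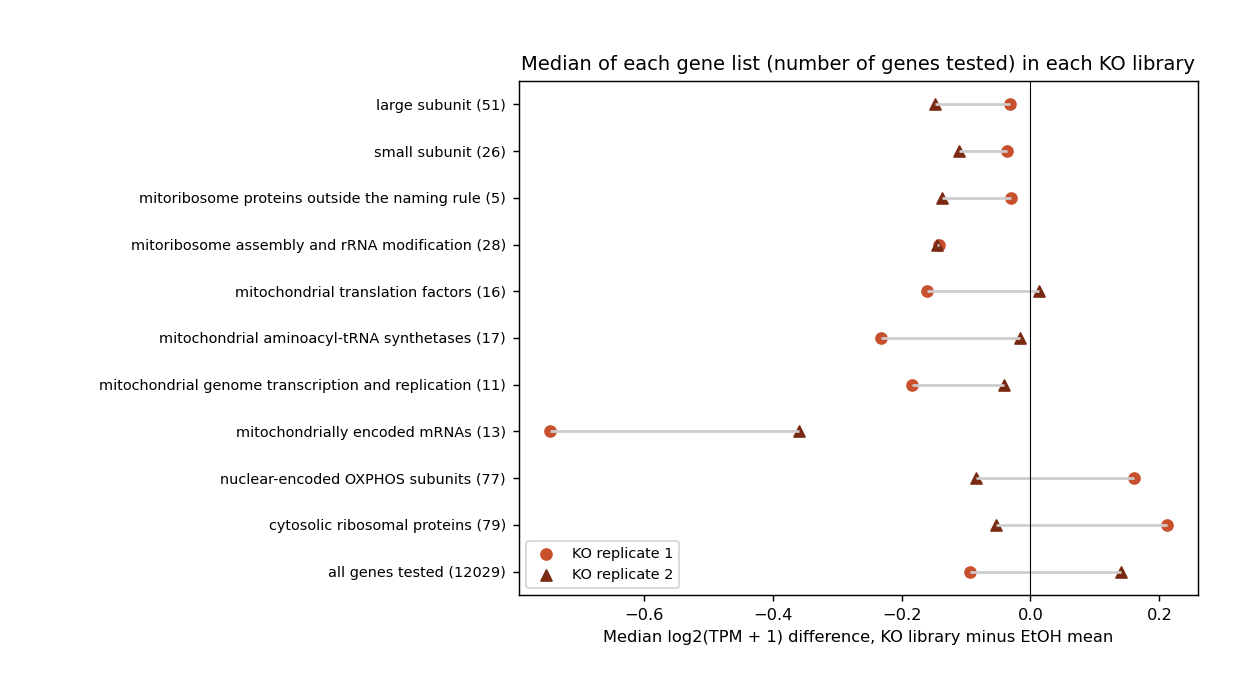
Median difference from the EtOH mean, on the log2(TPM + 1) scale, of each gene list in KO replicate 1 (circle) and KO replicate 2 (triangle), with the number of genes tested in brackets. On the TPM as deposited, the large and small subunit genes of the mitochondrial ribosome stand left of 0 in both libraries. The mitochondrially encoded mRNAs stand farthest left at -0.75 and -0.36. Cytosolic ribosomal proteins stand at 0.21 and -0.05, and all genes tested at -0.09 and 0.14.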

How the data were processed

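Gene expression was read from a table of TPM values for 4 libraries, deposited by the authors. Per the submitters' processing notes, Trim Galore, Salmon and the mouse build GRCm38 (mm10) were used; the sources used here name no versions and no annotation release. All libraries are labelled as batch 2. A further 2 value columns match no sample and were not used. TPM keeps no depth, so no counting interval was computed.

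Groups were compared on log2(TPM + 1) with limma 3.58.1 (R 4.3.3; mean-variance trend, two-sided, residual df 2, prior df 4.01) over the 12029 genes whose mean reached 1 TPM, with Benjamini-Hochberg adjustment and a threshold of 0.05. A fold change on this scale understates changes of low genes. The fit was tested on simulated data. The members, lists and roles were chosen with earlier results of these data known. Members named were up to 6 per direction by p, up to 4 by size among those without overlap, the 4 highest and 4 lowest levels and the Mrps18 paralogs; of other lists, up to 4 genes by p. Mrps11 and Mrpl46, the divergent partners, Chchd1, Gadd45gip1, Tcp1 and the members below in every scaling were named after their values were seen. Coordinates, lengths and GC come from GENCODE mouse release 21 (GRCm38), which gave length and GC for 11973 genes; copies were sought with blastn 2.17.0 (at least 95% identity over 50% of a transcript). Length and GC trends were removed per library with splines of 4 df. Alternatives were other pseudocounts, filters, scalings and variance models, a replicate block, each library left out and, added after seeing the data, leaving out members with a copy or overlap.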

Additional observations from a re-analysis of the deposited data

How the results depend on the processing

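Across all genes, 5 passed the threshold, against 0 with no filter on low values, 3 after median of ratios scaling, 3 after quantile normalization, 3 without limma's mean-variance trend, 256 after removing trends on length and GC and 474 with the replicate block; the causes were not tested. Leaving out a library gave 34 to 2957, with the lone library assumed to vary like the other group. Members past the threshold were 0 in each direction; with a library left out they numbered 0 to 8 higher and 0 to 17 lower, the highest without KO replicate 2 and KO replicate 1. The replicate block called 1 member lower, Mrpl3 (limma adjusted p = 0.0489); same-numbered libraries deviated together with a correlation of 0.29, but the labels give only shared numbers, so no pairing is taken from it. Under pseudocounts of 0.1 and 5 and a minimum of 5 TPM, 0 members passed and the members' median stayed negative.

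Members above without overlap (9, or 11.5%, against 23.1% of all genes) numbered 1 after median of ratios scaling (1.28%, against 22.9%). Without the length and GC trend they numbered 15 (19.2%, against 27.3%). Leaving out a library can only keep or raise counts of this kind, above or below. It gave 10 to 26 above (26 without KO replicate 2, 33.3% against 29.8% of all genes). Members below (36, or 46.2%, against 19.4% of all genes) numbered 18 after median of ratios scaling (23.1%, against 25.5%). After quantile normalization they numbered 16 (20.5%, against 24.4%). With a library left out they numbered 37 to 57. Without KO replicate 1 they were 57 (73.1%, against 26.3% of all genes) and without KO replicate 2 they were 40 (51.3%, against 56.3%). The members' median of -0.08 was -0.12 after median of ratios scaling, -0.048 after quantile normalization and -0.056 without the length and GC trend, and -0.13 to -0.032 with a library left out. The median of all genes was 0.14 without KO replicate 1 and -0.094 without KO replicate 2.

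Of the 78 members, 3 changed sign after median of ratios scaling, 6 after quantile normalization, 8 without the length and GC trend and 3 to 11 with a library left out. Among those named by the rule they were Mrps18c (0.0069 after quantile normalization and 0.091 without the length and GC trend), Mrpl42 (0.057 without that trend) and, over the libraries left out, Mrps18c (-0.27 to 0.22), Mrpl52 (-0.17 to 0.30), Mrpl14 (-0.050 to 0.66) and Mrps25 (-0.20 to 0.021); for each of these the extremes came from leaving out a KO library.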
